A study of Mus musculus with 8 samples.

Results

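The 8 N2A tumors of this RNA sequencing series fell into 2 sets that crossed the treatment. Set A held vehicle tumors 1 and 2 and SR59230A tumors 1 and 2, and set B held vehicle tumors 0 and 3 and SR59230A tumors 3 and 4, so each set had 4 of the 8 tumors and 2 of each treatment. The sets were chosen on expression: the numbers are those of the sample titles, and the split was proposed because the first principal component of log2 expression over all genes put these tumors apart. Levels of any gene in A against B are therefore given as a description. A cutoff that includes an adjusted p is used to sort genes, and is not read as a test of the sets. Tests were made of total reads, of fragment length, and of whether the difference between the sets depended on treatment.

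All tumors grew in female A/J mice, bought at 4 weeks of age per the study's methods, from 1000000 Neuro-2a (N2A) cells, a mouse neuroblastoma (NB) line, placed under the skin. Once a tumor could be felt, mice received vehicle (physiological solution) or the β3-adrenergic antagonist SR59230A (10 mg/kg) by intraperitoneal injection, with 2 injections a day. Host strain and tumor line were the same in every group, and RNA came from tumor tissue, so RNA of host cells was included. Nothing in the labels said what the tumor numbers stand for, whether a day, a cage or an order, nor that each tumor came from its own animal.

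A tumor mass holds dividing neuroblasts, vessels, stroma, leukocytes and at times skin, fat or muscle from its edge. Total RNA libraries also carry unspliced nuclear RNA, and any DNA left in the preparation is sequenced with it. Histone genes of the replication-dependent clusters are read in S phase, whereas olfactory and vomeronasal receptor genes are used by sensory neurons of the nose and serve here as genes that neuroblasts are not known to need. A fall in a marker of a cell type in bulk RNA can come from fewer cells or from less RNA per cell, which cannot be told apart.

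Estimated reads in transcripts came to 44, 31.2, 33.0 and 43.7 M (M, 1000000 reads) in set A, in the order vehicle 1, vehicle 2, SR59230A 1 and SR59230A 2. In set B they came to 28.6, 28.7, 23.5 and 32.1 M, in the order vehicle 0, vehicle 3, SR59230A 3 and SR59230A 4; this order of tumors is kept for all values that follow. Set A averaged 38.0 ± 6.81 M and set B 28.2 ± 3.57 M (SD, n = 4 each), and the exact two-sided permutation test over 70 assignments gave p = 0.0571, where the smallest p it allows is 0.0286. The median gap between transcript length and effective length, a measure of fragment length over transcripts of at least 2000 bases, was 162 ± 1.73 bases in set A and 157 ± 4.97 bases in set B (SD, n = 4 each; exact permutation p = 0.171). The measure depended on how it was taken: over transcripts of at least 5000 bases set A was higher by 31.6 bases (exact permutation p = 0.314), with vehicle tumor 0 at 36.7 bases, and the modal gap of unread transcripts was lower in A by 0.5 bases (difference -0.5, exact permutation p = 0.943). Noct, which codes for a clock-controlled enzyme, had the most reads in every tumor, from 7.58% to 17.0% of them. Of the Noct reads, 99.8% fell on 1 transcript model of 2 exons and 9797 bases, and what they stem from was not tested.

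Along the first principal component, which held 50% of the variance of log2 CPM (CPM, reads scaled to 1000000 per library with TMM factors) over 10982 genes, the set A tumors lay at 25.7, 34.4, 7.72 and 41.6 and the set B tumors at -20.7, -47.1, -25 and -16.7. SR59230A tumor 1 was the set A tumor nearest to set B. In a split of each gene's variance by term, the set took a mean of 31.0%, treatment 13.9% and their interaction 11.4%, with 1 degree of freedom each, and 43.7% was residual with 4. The set was chosen on component 1 of these same values, so that its share exceeds that of treatment is no finding.

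**Figure D1:**
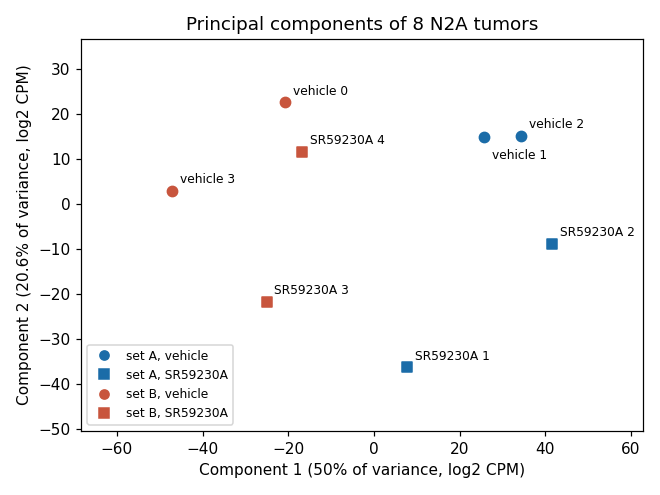
Positions of the 8 tumors on the first and second principal component of log2 CPM (share of variance on each axis), with color for the set and marker shape for the treatment. Set A lies between 7.72 and 41.6 on component 1 and set B between -47.1 and -16.7, while vehicle and SR59230A tumors occur on both sides.

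By list median, cell cycle and histone genes stood higher in set A, and mitochondrially encoded, olfactory receptor and vomeronasal receptor genes in set B. By share of reads, unprocessed pseudogenes and satellite-like models stood higher in set B. With treatment as a term, 234 of 16030 genes (1.46%) were higher in set A and 600 (3.74%) higher in set B, where the cutoff, used throughout to sort genes, asks for an edgeR adjusted p (Benjamini-Hochberg) under 0.05 and a log2 difference of 0.5 or more in size. The split depended on scaling: it was 2522 and 803 with library totals, and 6947 and 396 on log2(TPM + 1). By level alone, all 4 set A tumors lay above all 4 set B tumors in 1423 genes (8.88%), and all 4 set B tumors above in 1389 genes (8.67%). Nothing was read from these counts, because the sets were formed on the same libraries. They also rested on single tumors: leaving out 1 tumor gave 0 to 550 genes higher in A and 0 to 1301 higher in B, with at most 1 gene in either direction without vehicle 0, 1, 2 or 3 or without SR59230A 2 or 3, although all 234 and all 600 genes kept their sign there. Without SR59230A tumors 1 and 2 the counts were 104 and 737, and without vehicle tumors 0 and 3 and SR59230A tumor 4 they were 2 and 3.

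The split was chosen over the tumors of both treatments, so a like direction in vehicle and SR59230A tumors is no independent support, for single genes or for lists. The test of the difference between treatments (set by treatment interaction, edgeR) passed for 0 of 16030 genes (0.0%), where 838 had an unadjusted p under 0.05, while DESeq2 passed 58. Fabp4 and Gm7367 shared the smallest adjusted p by edgeR with Benjamini-Hochberg adjustment, 0.141. Fabp4, the fatty acid carrier of fat cells, was at 29.3, 36.1, 10.6 and 8.90 CPM in set A and at 17.0, 25.2, 108 and 64.2 CPM in set B, so the sets were in opposite order under the treatments. Hp, which codes for haptoglobin, and Scd1, a desaturase of fatty acid synthesis, followed at an adjusted p of 0.197 with the same opposite order, as did Col3a1, a fibrillar collagen, whose order was the reverse of theirs.

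Of the histone list, 66 of 69 genes were tested; 60 were higher in set A and 6 higher in set B, with a median log2 fold change of 0.82 beside 0.01 over all genes. Past the cutoff were 20 genes higher in A and 0 in B, and 16 members had no overlap with A above (1 with B above). These shares stand beside 1.46% and 8.88% over all genes, and nothing is read from them. The list took 0.467, 0.651, 0.590 and 0.568% of reads in A and 0.235, 0.261, 0.306 and 0.414% in B, without overlap, but its summed level in TMM-scaled CPM overlapped, at 4220, 6170, 5320 and 5280 in A and 2470, 2850, 3480 and 4570 in B. The list was written as a name pattern and took in H1f0, a histone made outside S phase, and H13, a peptidase. Hist2h3c2, an H3 gene on chromosome 3, was at 110, 183, 138 and 133 CPM in set A and at 41.1, 31.5, 69.4 and 80.0 CPM in set B (log2 fold change 1.44 ± 0.26 SE). Hist1h2bl, an H2B gene on chromosome 13, was at 48.3, 61.0, 58.2 and 57.2 CPM in set A and 28.3, 25.2, 29.4 and 31.5 CPM in set B (0.98 ± 0.10 SE). Both genes kept the sets apart, and the tumors within a set were closer for Hist1h2bl. In vehicle tumors the median of the list was 1.11 and in SR59230A tumors 0.43. Reads of near-identical histone copies can be split between genes: Hist1h4m had 26.6 CPM in vehicle tumor 0 and at most 0.30 CPM elsewhere, and Hist1h2bq had 27.4 CPM in SR59230A tumor 4 and at most 6.14 CPM elsewhere.

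Promoters of H2B genes are shown because some were past the cutoff and the family has a known control element, the octamer bound by Oct1. Of 18 listed H2B genes 5 were past the cutoff, beside 1.46% of all genes, and nothing is read from this count. H3 and H4 genes, such as Hist1h3b and Hist1h4a, were past it as well, so H2B was not the only such family. The octamer, ATTTGCAT on either strand, occurred in 7 of 16 H2B promoters found by symbol (43.8%) and in 7 of 17 H2A promoters (41.2%), many of which face an H2B gene across a shared window, against 0 of 10 H3 and 0 of 12 H4 promoters and 1.74% of all 32851 promoters of the same 300 bases. Below are 250 bases before the start of 2 H2B genes past the cutoff (RefSeq, GRCm38.p6), with the octamer in capitals: Hist1h2bk at chr13:22035571-22035820 on the plus strand, and Hist1h2bl at chr13:21716184-21716433 on the minus strand. Hist1h2bk was picked after its values were seen, as a gene with the octamer: of the 4 H2B genes past the cutoff that have a promoter entry, 1 holds it and 3 do not.
Hist1h2bk: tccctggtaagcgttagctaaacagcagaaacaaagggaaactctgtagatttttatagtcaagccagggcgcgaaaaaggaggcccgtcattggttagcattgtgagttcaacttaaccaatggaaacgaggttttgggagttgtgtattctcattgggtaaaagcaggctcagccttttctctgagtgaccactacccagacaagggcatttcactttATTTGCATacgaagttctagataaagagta
Hist1h2bl: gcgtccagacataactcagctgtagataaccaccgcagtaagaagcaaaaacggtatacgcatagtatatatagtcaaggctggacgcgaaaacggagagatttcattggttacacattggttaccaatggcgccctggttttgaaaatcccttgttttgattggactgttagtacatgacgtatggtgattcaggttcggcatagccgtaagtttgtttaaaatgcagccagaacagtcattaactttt
Hist1h2bk was at 65.3, 96.5, 80.0 and 86.4 CPM in set A and 46.1, 39, 52.9 and 50.7 CPM in set B, so the gene with the octamer and the one without these letters both lay higher in A.

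Proliferation genes were higher in set A as well. All 25 tested members of the cell cycle list were higher in set A, with a median log2 fold change of 0.62, in vehicle tumors 0.56 and in SR59230A tumors 0.61; 8 passed the cutoff and 14 did not overlap, beside 1.46% and 8.88% of all genes. The summed level of the list overlapped, from 3340 to 4370 CPM in A and from 2080 to 3550 CPM in B. Mcm5, a subunit of the replicative helicase, was at 111, 135, 122 and 122 CPM in set A and 77.0, 62.7, 56.1 and 82.6 CPM in set B (log2 fold change 0.82 ± 0.14 SE). Its partner Mcm2, the sliding clamp Pcna, the nucleotide reductase subunit Rrm2, the loading factor Cdc6, the cyclins Ccne1 and Ccnb1 and the mitotic kinase Aurkb made up the other genes past the cutoff, with log2 fold changes from 0.65 to 0.75. Cdc20 and Aurka, which act in mitosis, had 0.77 and 0.76 without passing it. Ung, which removes uracil from DNA, was at 14.6, 17.2, 13.9 and 14.2 CPM in set A against 8.74, 6.30, 6.35 and 10.1 CPM in set B. Pimreg, a mitotic regulator, and Lrr1, a substrate adaptor of a ubiquitin ligase, both had 0.86. The splicing subunit gene Sf3b5 had 0.90 ± 0.15 (SE).

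Secretory and stress genes gave smaller and mixed differences. In the unfolded protein response list 16 of 21 genes were higher in set A, with a median of 0.19 and 2 past the cutoff, beside 1.46% of all genes. Sdf2l1, an endoplasmic reticulum chaperone partner, was at 25, 28.5, 28.4 and 30.1 CPM in A and 16.9, 13.8, 17.2 and 16.9 CPM in B, and Creld2, also of the endoplasmic reticulum, had a log2 fold change of 0.54 ± 0.10 (SE). Of 16 heat shock genes 13 were higher in A (median 0.18, 0 past the cutoff), while the inducible Hspa1a and Hspa1b had -1.69 and -1.21. Of 20 immediate early genes 16 were higher in B (median -0.30) and 6 had all set B tumors above, beside 8.67% of all genes. Nothing is read from these counts. Among the 6 were Fosb at 0.819 to 1.27 CPM in A and 1.62 to 2.33 CPM in B, and Dusp1, a MAP kinase phosphatase, at 5.92 to 8.29 CPM in A and 9.62 to 17.2 CPM in B. Ier2, of the same list, passed the cutoff in the other direction (0.58 ± 0.14 SE). In the oxidative stress list only Txn1, which codes for thioredoxin, passed the cutoff, and was higher in A (0.51). The metallothionein genes Mt2 and Mt1 had -1.39 and -1.27, with overlap of the sets for both. In vehicle tumors they had -0.74 and -0.54, and in SR59230A tumors -2.0 and -1.97. Lists of p53 targets (median 0.00) and cholesterol synthesis (-0.04) had no member past the cutoff.

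Hypoxia genes were mixed. Of 22 tested, 4 were past the cutoff and higher in set B: the mitophagy receptor Bnip3, the stress gene Ndrg1, the histone demethylase Kdm3a and the oxidase Ero1l. This count stands beside 3.74% of all genes, and nothing is read from it. Ndrg1 was at 14.5, 14.5, 11.2 and 16 CPM in A and 25.7, 33.8, 30.6 and 20.6 CPM in B, and Bnip3 at 43.3, 62.9, 35.4 and 46.2 CPM in A and 85.4, 105, 65.6 and 63.1 CPM in B, without overlap for either. The median of the list was -0.14, with 9 genes higher in A, and it stood at -0.49 in vehicle tumors and 0.06 in SR59230A tumors.

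Interferon-stimulated genes and PD-L1 were looked at together. Of 25 interferon genes 20 were higher in B, with a median of -0.49 (vehicle -0.36, SR59230A -0.46), but 1 passed the cutoff and 3 did not overlap, which are shares near the 3.74% and 8.67% of all genes and no result about the list. The gene past the cutoff, Mx2, an antiviral GTPase, was at 4.11, 3.16, 2.26 and 3.34 CPM in A and 6.21, 8.09, 8.58 and 5.74 CPM in B. On log2(TPM + 1) and log2(TPM + 0.1) the median of the list was 0.13 and 0.17, where the median of all genes was 0.53 and 0.59. Cd274, which codes for the checkpoint ligand PD-L1, was at 8.61, 8.44, 9.28 and 8.27 CPM in A and 16.6, 38.8, 20.9 and 14.1 CPM in B (log2 fold change -1.35 ± 0.28 SE). The 4 set A tumors were close together, and vehicle tumor 3 was the highest of set B. Cd274 had 100% of its reads on its full protein-coding transcript of 7 exons. Of the words of 25 bases in its longest transcript, 3.03% occurred at least 20 times among transcripts. In 1291 genes with 1.0% to 4.98% of such words 5.65% were past the cutoff toward B, against 0.819% of 6712 genes with none. Of all 10688 genes sorted in this way 2.2% were, and nothing is read from these shares. Whether this bears on Cd274 was not tested.

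**Figure D2:**
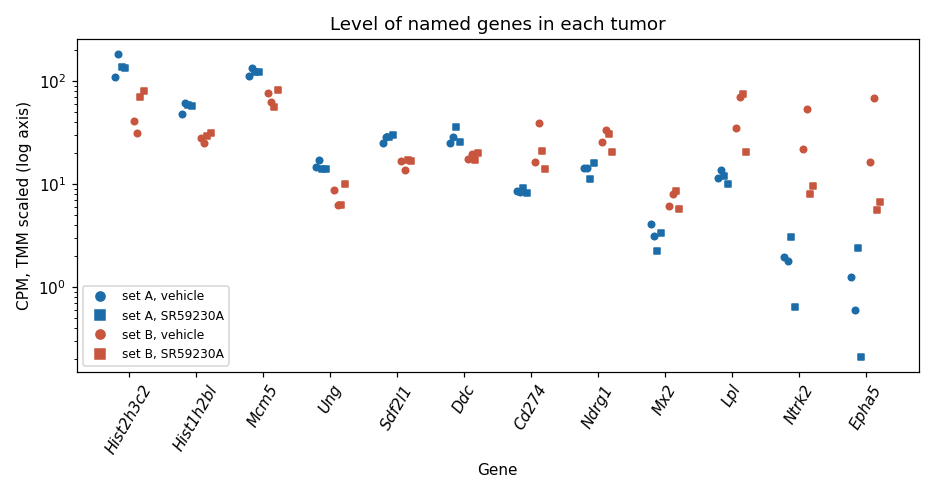
CPM (log axis) of 12 named genes in each of the 8 tumors, with set A on the left of each gene and set B on the right. Hist1h2bl, Mcm5 and Sdf2l1 lie higher in the 4 set A tumors and Cd274, Lpl, Ntrk2 and Epha5 in the 4 set B tumors, with the widest spread for Epha5.

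Host tissue markers were checked next. Skeletal muscle genes, which code for the sarcomere and its calcium store, had 33 of 33 members higher in set A and a median of 3.90, yet the summed level was 94.0 and 93.5 CPM in vehicle tumors 1 and 2, 3480 and 319 CPM in SR59230A tumors 1 and 2, and 82.8 to 104 CPM in set B. The muscle reads thus lay in SR59230A tumors 1 and 2: the median was -0.56 in vehicle tumors and 5.86 in SR59230A tumors, and -0.22 without those tumors. Myh4, a fast myosin, was at 0, 0, 164 and 27.2 CPM in A and at most 0.775 CPM in B. Fat cell genes had a median of -1.30 that turned from 0.93 in vehicle tumors to -3.14 in SR59230A tumors. Lpl, a lipase that macrophages also make, was the fat list gene past the cutoff, at 11.5, 13.7, 11.9 and 9.99 CPM in A and 34.8, 70.2, 74.2 and 20.7 CPM in B.

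Leukocyte lists did not separate the sets as a whole. Of 20 macrophage genes 11 were higher in A (median 0.05) and 3 passed the cutoff, all higher in A: the complement genes C1qa (0.76) and C1qc (0.83) and the lipid carrier Apoe (0.71). This count stands beside 1.46% of all genes, and nothing is read from it. C1qc was at 17.3, 16.3, 23.6 and 24.8 CPM in A and 9.92, 9.99, 15.8 and 10.1 CPM in B. The scavenger receptor Cd163 did not pass the cutoff, at 93.4, 75.1, 86.8 and 55.0 CPM in A and 66.2, 163, 176 and 158 CPM in B, with overlap. Of 14 neutrophil genes 8 passed the filter on low counts, and all 8 were higher in B (median -0.96, 0 past the cutoff). A gene could pass that filter through the set in which it was higher, so this direction does not describe the list. Without the filter the median of 14 genes was -1.32. Reads were few for some: Mpo had 1 to 14 per tumor. S100a9 was at 11.3 CPM in SR59230A tumor 3 and at most 1.13 CPM elsewhere. T and NK cell genes summed to 8.10 to 12.3 CPM in A and 9.45 to 13.3 CPM in B, and B and plasma cell genes to 150 to 168 and 147 to 175 CPM. Cd3d, a T cell receptor chain, passed the cutoff at 0.064 to 0.185 CPM in A and 0.206 to 0.873 CPM in B, which are few reads per tumor. Mast cell genes had 2 tested members and were not summarized.

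Stroma and vessel lists overlapped in summed level. Fibroblast and matrix genes summed to 2400 to 3400 CPM in A and 2720 to 3340 CPM in B (median -0.17), with Dcn, a matrix proteoglycan, the gene past the cutoff (-1.25 ± 0.31 SE). Endothelial genes had a median of -0.15, pericyte and smooth muscle genes 0.01 and dendritic cell genes 0.12, with 0 past the cutoff in each. The erythroid list (7 tested, -0.19) and the skin epithelium list (5 tested, -0.18) also had 0. The Schwann cell list summed to 319 to 432 CPM in A and 460 to 495 CPM in B, without overlap, most of it Pmp22 at 276 to 377 and 399 to 443 CPM.

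Neuroblast lists had medians near that of all genes. Of 18 tested identity genes 11 were higher in set A, with a median of 0.07, and 24 neuronal differentiation genes had a median of -0.01 with 0 past the cutoff. Mycn, the driver oncogene of NB, was at 19.1, 14.8, 7.56 and 9.97 CPM in A and 17.1, 8.05, 6.54 and 9.75 CPM in B, with overlap. Th, the first enzyme of catecholamine synthesis, was at 117, 118, 46.2 and 68.4 CPM in A and 157, 73.0, 61.3 and 91.5 CPM in B, also with overlap. Ddc, the enzyme that follows Th, was the identity gene past the cutoff, at 25.2, 29.0, 36.1 and 25.8 CPM in A and 17.6, 19.6, 17.0 and 20 CPM in B. Cytosolic ribosomal protein genes had a median of 0.08 and 0 of 76 past the cutoff. Changing the scale moved list medians with all genes: on the TPM scales the interferon, immediate early, hypoxia, oxidative stress, cholesterol, splicing, fibroblast, endothelial, Schwann cell, erythroid and B and plasma cell medians were above 0, at 0.01 to 0.59. The histone, cell cycle, heat shock and unfolded protein response medians stayed above 0, and the mitochondrial, receptor, neutrophil and adipocyte medians below 0, under each scaling run.

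**Figure D3:**
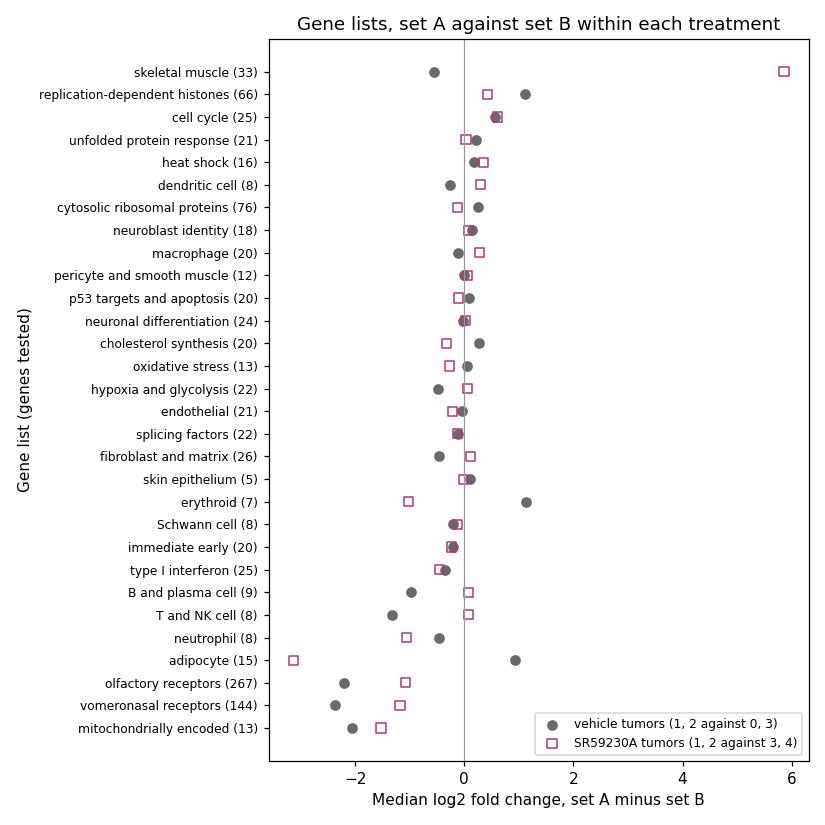
Median log2 fold change of set A minus set B (horizontal axis) for each gene list, with the number of genes tested in brackets; filled circles are vehicle tumors and open squares SR59230A tumors. Cell cycle genes lie near 0.6 in both, nasal receptors and mitochondrially encoded genes below -1 in both, and skeletal muscle and adipocyte genes on opposite sides of 0.

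Mitochondrial transcripts took a larger share in most set B tumors. All 13 mitochondrially encoded genes were higher in set B, with a median of -1.84 (vehicle -2.06, SR59230A -1.53) and 7 past the cutoff, beside 3.74% of all genes. They took 1.39, 1.30, 3.61 and 1.54% of reads in A and 3.10, 6.11, 7.47 and 3.16% in B, with SR59230A tumor 1 among the set B values. The respiratory chain subunit gene mt-Co2 was at 174, 637, 1010 and 1300 CPM in A and 1630, 6210, 5440 and 2280 CPM in B, without overlap. mt-Nd4, of complex I, was at 383, 432, 1480 and 420 CPM in A and 1250, 2860, 4070 and 1400 CPM in B, where SR59230A tumor 1 overlapped.

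Olfactory and vomeronasal receptor genes were higher in set B. Of 1092 olfactory receptor genes 267 passed the filter on low counts, of which 263 were higher in B (median -1.64) and 89 past the cutoff; of 318 vomeronasal receptor genes 144 passed it, 142 were higher in B (median -1.76) and 69 past the cutoff. The counts past the cutoff stand beside 3.74% of all genes, and nothing is read from them. Since a gene could pass the filter through the set in which it was higher, the receptor counts do not describe all receptor genes. The median receptor was at 0.431, 0.395, 0.900 and 0.405 CPM in A and 1.43, 2.66, 1.55 and 0.927 CPM in B for the olfactory family, and at 0.689, 0.728, 1.42 and 0.629 CPM in A and 2.33, 5.11, 3.03 and 1.80 CPM in B for the vomeronasal family. Vehicle tumor 3 was the highest for both. Single models lay far above these medians, at up to 332 CPM in A and 877 CPM in B (olfactory) and 210 and 696 CPM (vomeronasal). As a share of reads the olfactory list overlapped, with 0.169% in SR59230A tumor 1 and 0.168% in SR59230A tumor 4. The vomeronasal list did not, with 0.0993% and 0.0999% in the same tumors. Vmn1r38 was at 0.37, 0.243, 1.12 and 0.234 CPM in A and 7.75, 14.7, 2.42 and 3.06 CPM in B. Both families keep many near-identical members, between which reads can be split.

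By type of gene, 229 of the 234 genes higher in A were protein-coding (97.9%), against 451 of the 600 higher in B (75.2%) and 93.2% of all genes tested. Processed pseudogenes, copies of spliced mRNA in the genome, were 107 of the 600 (17.8%) and 4.44% of all. Unprocessed pseudogenes took 0.443, 0.504, 0.774 and 0.269% of reads in A and 0.942, 0.886, 1.57 and 0.894% in B, without overlap. Processed pseudogenes, by contrast, overlapped, with 2.88, 2.69, 2.71 and 2.90% in A and 2.88, 3.67, 4.42 and 2.90% in B. Transcripts of 1 exon took 6.79, 6.77, 9.57 and 6.81% in A and 8.70, 13.3, 16.2 and 9.39% in B, with overlap. With the satellite-like models left out of the total, they took 6.80, 6.77, 9.60 and 6.81% in A and 9.93, 14.6, 16.3 and 10.1% in B, without overlap.

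A wide separation was seen in 11 gene models that share sequence with Gm10801, referred to as satellite-like. They lie in 2 places: Gm10800 and Gm10801 (chr2:98662237-98664083, plus strand) on chromosome 2, and 9 models between positions 3000922 and 3038316 of chromosome 9. They took 0.115, 0.0134, 0.299 and 0.0058% of reads in set A and 12.3, 9.03, 0.745 and 6.72% in set B. The sets did not overlap, but SR59230A tumor 3 was nearer to SR59230A tumor 1 than to the rest of set B. Gm10800 was at 525, 55.5, 1360 and 14.9 CPM in A and 66800, 51200, 4230 and 37900 CPM in B. To show what these models hold, the first 240 bases of the Gm10801 coding sequence (GENCODE M21, GRCm38) are printed. Capitals mark bases in words of 16 letters that occur in at least 6 of the 11 models, which came to 217 of the 240 bases. The stretch was picked for this: no other 240 bases of the model held more such words. Over the whole 504 bases of Gm10801, 349 were in such words.
Gm10801: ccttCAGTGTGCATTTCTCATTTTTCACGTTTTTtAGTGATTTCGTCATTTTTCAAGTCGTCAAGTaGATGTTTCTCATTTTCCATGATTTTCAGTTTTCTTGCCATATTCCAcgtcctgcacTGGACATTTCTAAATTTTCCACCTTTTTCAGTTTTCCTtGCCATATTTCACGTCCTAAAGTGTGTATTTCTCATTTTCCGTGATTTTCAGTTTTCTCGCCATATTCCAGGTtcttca
The stretch is rich in T and repeats itself with small changes, and the 11 models had a GC content of 34.3% to 36.0%; no repeat annotation was used to name it.

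**Figure D4:**
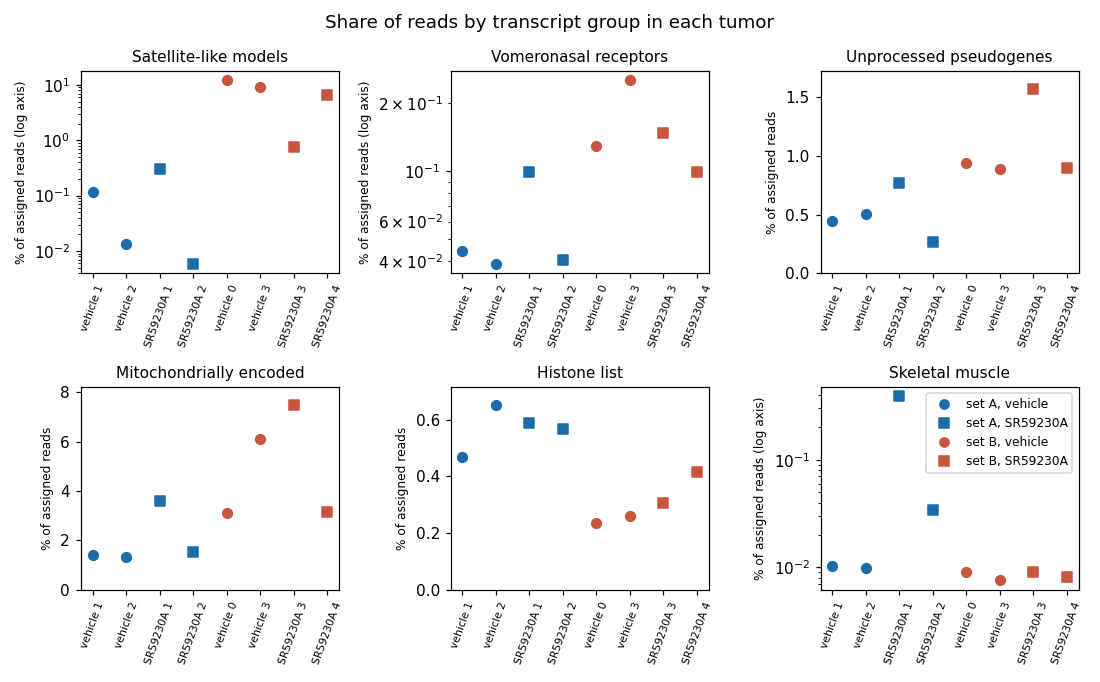
Percent of assigned reads in 6 groups of transcripts for each tumor (log axis where marked), with color for the set and marker shape for the treatment. Satellite-like models and unprocessed pseudogenes lie higher in the 4 set B tumors and the histone list, as a share of reads, in the 4 set A tumors, whereas skeletal muscle stands out at 0.388% in SR59230A tumor 1.

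Retained-intron transcripts showed the same order within genes. The share of a gene's reads on retained-intron transcripts, out of those plus protein-coding ones, could be set for 5976 genes with at least 50 such reads in every tumor and 40 retained-intron reads in all. All 4 set B tumors lay above all 4 set A tumors in 1112 genes (18.6%), and all 4 set A tumors above in 23 (0.385%). The median share was 3.01, 2.94, 5.15 and 3.01% in A and 4.85, 7.55, 8.5 and 5.03% in B, so SR59230A tumor 1 lay with set B. Tra2a, a splicing regulator that controls its own introns, had 15.42, 15.47, 18.86 and 16.37% in A and 30.88, 54.09, 51.33 and 31.20% in B. Mettl3, the RNA adenosine methyltransferase, had 11.86, 12.97, 28.04 and 11.41% in A and 28.23, 42.01, 55.61 and 35.14% in B. The kinase gene Clk1, known for introns held back in the nucleus, was higher in B by level, at 32.0, 32.6, 40.3 and 34.2 CPM in A and 44.3, 65.1, 81.5 and 54.3 CPM in B. Its retained-intron share overlapped, however, at 36.29, 40.55, 54.40 and 38.07% in A and 47.43, 52.71, 60.07 and 51.27% in B. Of 21 splicing factors with a share, 8 had all set B tumors above and 13 overlapped. Tra2a and Mettl3 were picked after their values were seen, and Salmon assigns reads between overlapping transcripts by estimate.

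Protein-coding genes with the largest differences toward B included neural and pituitary genes at low level. Epha5, an axon guidance receptor, was at 1.25, 0.607, 2.43 and 0.213 CPM in A and 16.5, 67.8, 5.67 and 6.77 CPM in B. Ntrk2, the receptor TrkB, was at 1.99, 1.79, 3.08 and 0.639 CPM in A and 21.9, 53.7, 8.09 and 9.58 CPM in B, and Pou1f1, a pituitary factor, at 1.73, 1.73, 4.31 and 0.533 CPM in A and 13.9, 48.7, 15.1 and 5.39 CPM in B. Within set A, SR59230A tumor 1 was the highest and SR59230A tumor 2 the lowest for each of these genes. The orphan receptor Gpr37 (-3.83), the adhesion gene Ntm (-3.57), the peptidase Mme (-3.52), the kinase Mylk4 (-3.16), the growth factor Fgf9 (-3.07) and the glutamate carrier Slc1a3 (-2.94) had the same direction in log2 fold change. For Slc1a3, 88.6% of reads fell on a retained-intron transcript. A processed transcript held 89.0% of reads for Ccdc162 (-3.21, 2 exons) and 98.0% for Tmem200a (-3.05, 3 exons). Epha5, Ntrk2 and Pou1f1 had 96.6, 93.8 and 98.4% on a protein-coding transcript. A retained-intron transcript held the most reads in 11% of the 444 nuclear protein-coding genes higher in B, in 0.873% of the 229 higher in A and in 2.79% of all. When reads of protein-coding transcripts alone were fitted, 0 genes passed in either direction by edgeR, where an unadjusted p under 0.05 was reached by 1804 genes toward A and 1850 toward B. The direction was mostly kept there: 228 of 228 genes higher in A and 381 of 384 higher in B had the same sign, and list medians were 0.75 for histones, 0.58 for cell cycle, -1.92 for mitochondrially encoded genes and -1.72 for olfactory receptors.

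Y-linked genes were looked at too. The hosts were female, and the sex of the injected N2A line was not looked at. Ddx3y had at most 2 reads in any tumor and Eif2s3y at most 1, in all 8 tumors. Uty, by contrast, had 6.99, 5.52, 16.9 and 2.07 CPM in A and 46.7, 155, 47.1 and 21.8 CPM in B, and 99.4% of its reads fell on a retained-intron transcript of 1 exon and 2368 bases within the gene. Kdm5d was at 91.6, 75.4, 158 and 84.3 CPM in A and 108, 234, 308 and 200 CPM in B, with overlap. Of its reads, 97.6% fell on a decay transcript. Xist was not analysed here, as no transcript of that name was matched.

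Differences between the sets were laid beside properties of the transcript. GC content was averaged over a gene's transcripts with the reads of these 8 tumors as weights, and length was that of its longest transcript. GC content thus depends in part on which transcripts held reads. For 10688 nuclear protein-coding genes averaging 5 CPM or more, the median log2 fold change was 0.07. With genes put in 5 equal bins it went from -0.08 in the bin of lowest GC content to 0.19 in the highest, and from 0.21 in the bin of shortest transcripts to -0.07 in the longest. Genes higher in A had a median GC content of 55.0% and a median length of 1916 bases, and those higher in B 42.6% and 5317 bases, beside 49.9% and 3574 bases for all. Of 250 genes with over 5% of their words of 25 bases repeated at least 20 times among transcripts, 62 (24.8%) were higher in B. Beside this stand 55 of 6712 genes (0.819%) without such words and 2.2% of the 10688 genes. Nothing is read from these counts, because the sets were formed on the same libraries. The steps had the same direction in vehicle and in SR59230A tumors, which is no independent support, and were steeper in vehicle tumors. Whether GC content, length or repeats bear on the histone and cell cycle differences was not tested, and the histone transcripts are short.

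**Figure D5:**
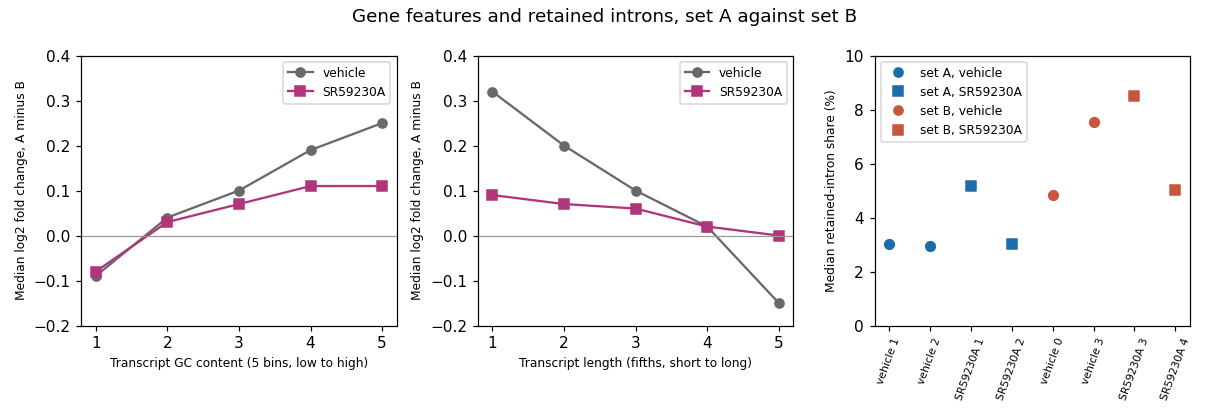
Median log2 fold change of set A minus set B in 5 bins of transcript GC content and of transcript length, for vehicle and SR59230A tumors, and the median retained-intron share (%) in each tumor. The lowest GC bin lies below 0 and the highest above under both treatments, and the retained-intron share runs from 2.94% to 5.15% in set A and from 4.85% to 8.5% in set B.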

How the data were processed

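Deposited Salmon files of 8 tumors were used. Per the study's methods, the authors took RNA of homogenized tumors, left out RNA with an integrity number under their minimum, made TruSeq Stranded Total RNA Gold libraries, read pairs of 76 bases and ran Salmon on a GRCm38 transcriptome, whereas the submitters' notes name GRCm39, Salmon and DESeq2. The deposited values are estimated counts, which the authors did not normalize, and TPM, which the authors' run scaled per library and length. A deposited table of normalized counts was not used.

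Transcripts were matched by identifier to GENCODE M21 (99.1% matched), summed to genes and rounded. edgeR 4.0.16 (R 4.3.3) used TMM factors (1.06 to 1.11 in set A, 0.883 to 0.956 in set B), filterByExpr on the 4 set-by-treatment groups, treatment and set as terms, and Benjamini-Hochberg adjustment; CPM are scaled by TMM. A log2 fold change is set A minus set B. DESeq2 1.42.0, limma 3.58.1 on log2(TPM + 1) and log2(TPM + 0.1), other scalings and filters, transcript length offsets and the removal of tumors were alternatives. The fit was tested on simulated counts. Repeats were counted as words of 25 bases. p-values measure only the spread between these tumors.

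The members, lists and tests were chosen with earlier results of these data known. Named genes were the 12 protein-coding genes with the largest change in each direction among those past the cutoff, at a mean of at least 5 CPM, without overlap and not Gm, Rik, Olfr or Vmn models; the 4 of any type; up to 3 of each list; the 5 with the smallest interaction p; the members of each list past the cutoff and the retained-intron examples, which were added after their values were seen; and Xist, Y-linked genes, Mycn, Th, Cd274 and the most abundant gene. Lists of structural small RNAs, small RNA hosts, nuclear RNAs and Xist had too few members in the files and are not reported. Some genes that this rule names are not reported here.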

Additional observations from a re-analysis of the deposited data

Results flagged for a closer look

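SR59230A tumor 1 lay apart from the other set A tumors in 4 shares of reads. It had 3.61% of reads in mitochondrially encoded genes, 0.388% in skeletal muscle genes, 9.57% in transcripts of 1 exon and 0.0993% in vomeronasal receptors, each with a gap to the next tumor beyond Dixon's limit for 4 samples. SR59230A tumor 3 lay apart in set B with 1.57% of reads in unprocessed pseudogenes. These were 5 of 70 groups looked at, and chance flags about 1 in 20.

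Fabp4, Hp, Scd1 and Col3a1, among the genes with the smallest interaction p, ordered the sets in opposite ways under the 2 treatments. The difference of set A minus set B in vehicle tumors was 11.6 CPM for Fabp4, 26.2 CPM for Hp and 83.3 CPM for Scd1, and in SR59230A tumors -76.6, -51.4 and -168 CPM. For Col3a1 it was -151 CPM in vehicle and 109 CPM in SR59230A tumors. None of these passed the interaction test (edgeR, Benjamini-Hochberg adjusted p from 0.141 to 0.197).

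Summed list levels did the same, and these differences were not tested. The vehicle and SR59230A differences were -659 and 429 CPM for fibroblast and matrix genes, 79.6 and -46.9 CPM for erythroid genes, 57.7 and -40.9 CPM for p53 targets, and -2.95 and 5.30 CPM for dendritic cell genes.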

How the results depend on the processing

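Genes higher in set A numbered 385 with DESeq2, 2522 with library totals without TMM, 117 at a mean of at least 100 reads, 6947 and 7395 on log2(TPM + 1) and log2(TPM + 0.1), 0 on protein-coding transcripts, 104 without SR59230A tumors 1 and 2, and 2 without vehicle tumors 0 and 3 and SR59230A tumor 4. Genes higher in set B numbered 1264 with DESeq2, 301 at a mean of at least 100 reads, 396 and 392 on the TPM scales, 0 on protein-coding transcripts and 3 without vehicle tumors 0 and 3 and SR59230A tumor 4. Leaving out 1 tumor gave 0 to 550 and 0 to 1301. Library totals moved the median of all genes to 0.26 and TPM to 0.53 or 0.59. The other settings run on all 8 tumors stayed within 1.5 times.

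The interaction passed for 58 genes with DESeq2, 7 without a filter, 6 and 5 on the TPM scales, and 0 to 33 when 1 tumor was left out. With the tumor number as a replicate block 14 genes passed, on 1 residual degree of freedom; the numbers do not show that tumors are paired, and tumor 1 minus tumor 2 in vehicle correlated at 0.103 with the same in SR59230A across genes. A set difference cannot be fitted with that block, since each number lies in 1 set.

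Among lists with a median of at least 0.5 in size, those that changed sign were B and plasma cell genes, from -0.71 to 0.00, 0.02 and 0.01 (mean of 100 reads and TPM scales) and 0.01 (without vehicle tumors 0 and 3 and SR59230A tumor 4, where T and NK cell genes went from -0.76 to 0.11), adipocyte genes, from -1.30 to between -2.01 and 0.05 when 1 tumor was left out (0.05 without SR59230A tumor 2) and 0.92 (without SR59230A tumors 1 and 2), and skeletal muscle genes to -0.22 without the latter; the cause was not tested. Smaller medians changed sign more often, as for erythroid genes, from -0.19 to 1.13 without SR59230A tumors 1 and 2 and 0.50 on TPM, and for fibroblast, immediate early and interferon genes, to 0.39, 0.29 and 0.13 on log2(TPM + 1). The fragment length difference ran from 2.50 to 5.89 bases when 1 tumor was left out. The difference in total reads ran from 7.74 to 12 M. Without vehicle tumor 2 the exact permutation test gave p = 0.0286, the smallest p it allows with 1 tumor left out. That run is singled out from several.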
